A study of Bos taurus with 18 samples.

Results

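The endometrium of 3 Holstein cows was compared between day 7 of a cycle with a progesterone injection and day 4 of an untreated cycle. The comparison comprised 6 of the 18 bulk RNA libraries of the study (Bos taurus): the treated day 7 and the day 4 library of animals D, E and F, paired by cow. The treated day 7 group (n = 3) came from the treatment cycle, in which each of these cows had received 100 mg of progesterone (P4) on day 4, day 0 being estrus. The day 4 group (n = 3) came from the same cows in an earlier cycle without exogenous progestogen. The remaining libraries were 3 from day 7 of that untreated cycle (control day 7), and 9 from animals A, B and C, sampled in the same way but injected with a depot of 100 mg of 17-hydroxyprogesterone caproate and 10 mg of P4 (the 17-OHPC/P4 arm). All 6 cows were kept on a commercial dairy farm, and both cycles were synchronized by Ovsynch, a hormone protocol that times ovulation. Cells were brushed from the horn next to the ovary that carried the corpus luteum. The labels name no vehicle injection in the untreated cycle. The day after estrus, the cycle and the injection all differ between the compared groups. Their parts in a difference cannot be told apart in this comparison alone, and values of control day 7 are given further below.

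Progesterone from the young corpus luteum acts on the endometrium through its nuclear receptor PGR and prepares the uterus for an embryo. In ruminants the lining then turns from the proliferation driven by estrogen around estrus to secretion: glands and surface epithelium take up lipids, amino acids and glucose and release histotroph, the fluid that feeds the embryo before implantation. Continued progesterone is known to reduce PGR in the epithelium itself. A brush takes mostly surface epithelium, with stromal, immune and blood cells in smaller and varying amounts.

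The 6 compared libraries held 30112365 to 40733544 counts and 21830 to 23297 detected genes each. The 10 most abundant genes took 6.51% to 15.4% of the counts, most in treated D, and mitochondrially encoded genes took 6.21% to 12.4% of the treated libraries and 6.28% to 6.79% of the day 4 libraries. Scaling factors (TMM, which correct for differences in RNA composition) were 0.944, 0.925 and 0.881 in the treated libraries and 1.10, 1.12 and 1.16 in the day 4 libraries. Between 78.1% and 82.2% of the counts from 1 to 20 were even numbers, and how read pairs were counted is not stated. Animal C of the 17-OHPC/P4 arm stood apart, with red cell markers summing to 361 to 4181 CPM (counts scaled to the size of the library) in its 3 libraries and to 2.08 to 6.63 CPM in those of the other 5 cows. Epithelial markers were high in all 6 compared libraries, summing to 4135 to 6815 CPM on treated day 7 and 5325 to 6464 CPM on day 4.

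Of 19638 genes tested, 2702 passed an adjusted p of 0.05 (13.8%), 1525 higher on treated day 7 (7.77%) and 1177 lower (5.99%), by the quasi-likelihood test of edgeR with the cow as a block. The direction was shared by all 3 cows for 2693 of them, a count that the choice of called genes by the same values makes high. The 3 treated values did not overlap the 3 day 4 values for 2605 called genes, against 6827 of all genes tested (34.8%). Without the cow as a block 1468 genes were called. More than 4-fold differences were found in 478 genes called higher and 404 called lower, and 350 called genes carried no symbol. Without one library at a time the count ran between 2764 without treated D and 702 without treated F, with 2059 without treated E and 1269, 1086 and 869 without day 4 D, E and F. With library totals in place of scaling factors, 958 genes were called higher and 2933 lower (24.6% higher, against 56.4% with TMM), and the median log2 fold change of all genes moved from -0.05 to -0.35. All 2702 genes kept their direction there. In brushed bulk samples, fewer cells of a type and less RNA per cell cannot be told apart.

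The genes with the smallest p among those higher on treated day 7 belonged to no single pathway. Values below are CPM after scaling, in the order of animals D, E and F, and fold changes are log2 with their standard error (SE, n = 3 cows). NUPR1 (ENSBTAG00000018016), a small stress-responsive chromatin protein, had 107, 99.7 and 134 CPM on treated day 7, against 5.97, 3.36 and 3.46 CPM on day 4, a log2 fold change of 4.82 ± 0.39 (adjusted p = 6.49e-04). MYH7B (ENSBTAG00000003512), a slow myosin heavy chain best known from muscle, had 759, 697 and 1362 CPM on treated day 7, against 11.6, 12.7 and 10.5 CPM on day 4, a difference of 6.38 ± 0.53 (adjusted p = 6.49e-04). The lowest treated value of each stood far above the highest day 4 value. LY6G6E, of the LY6 family of surface proteins, had 210.1, 435 and 315 CPM on treated day 7 and 42.8, 37.7 and 38.1 CPM on day 4 (2.97 ± 0.26, adjusted p = 6.49e-04). Its groups did not overlap, and its day 4 values lay within a narrow range.

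Further genes of this set were SMCO4 (3.14 ± 0.27), NAPRT, an enzyme of NAD synthesis (2.10 ± 0.20), DISC1, a scaffold protein (4.64 ± 0.45), the kinase DMPK (4.31 ± 0.42), ICA1 (2.16 ± 0.22), the calcium-binding CIB1 (1.68 ± 0.18) and PRICKLE1, of planar cell polarity (2.33 ± 0.25), with adjusted p from 6.49e-04 to 0.00125. By size of the change, HAVCR1, a surface receptor for phosphatidylserine, had 10.6, 6.68 and 38.8 CPM on treated day 7 and 0.05, 0.0439 and 0.140 CPM on day 4 (7.71 ± 0.87, adjusted p = 0.00130). ACMSD, which steers tryptophan breakdown away from NAD, had 14.4, 10.3 and 32.8 CPM on treated day 7 and 0.100, 0.0439 and 0.0935 CPM on day 4 (7.84 ± 0.96, adjusted p = 0.00167). SLC22A3, an organic cation transporter, had 5.28, 0.639 and 9.54 CPM on treated day 7 and 0.05, 0 and 0 CPM on day 4 (adjusted p = 0.00368), too few on day 4, 2 counts over the group, for a fold change, whereas HAVCR1 had 10. These counts would stand for fewer RNA fragments if both reads of each pair were counted, and the fold changes of HAVCR1 and ACMSD rest on such low day 4 levels. SYNDIG1 (6.52 ± 1.39, adjusted p = 0.0141) ended without day 4 D, E or F or treated F (up to 0.0843). The other genes named so far passed in each of the 6 fits that left out 1 of the compared libraries.

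**Figure D1:**
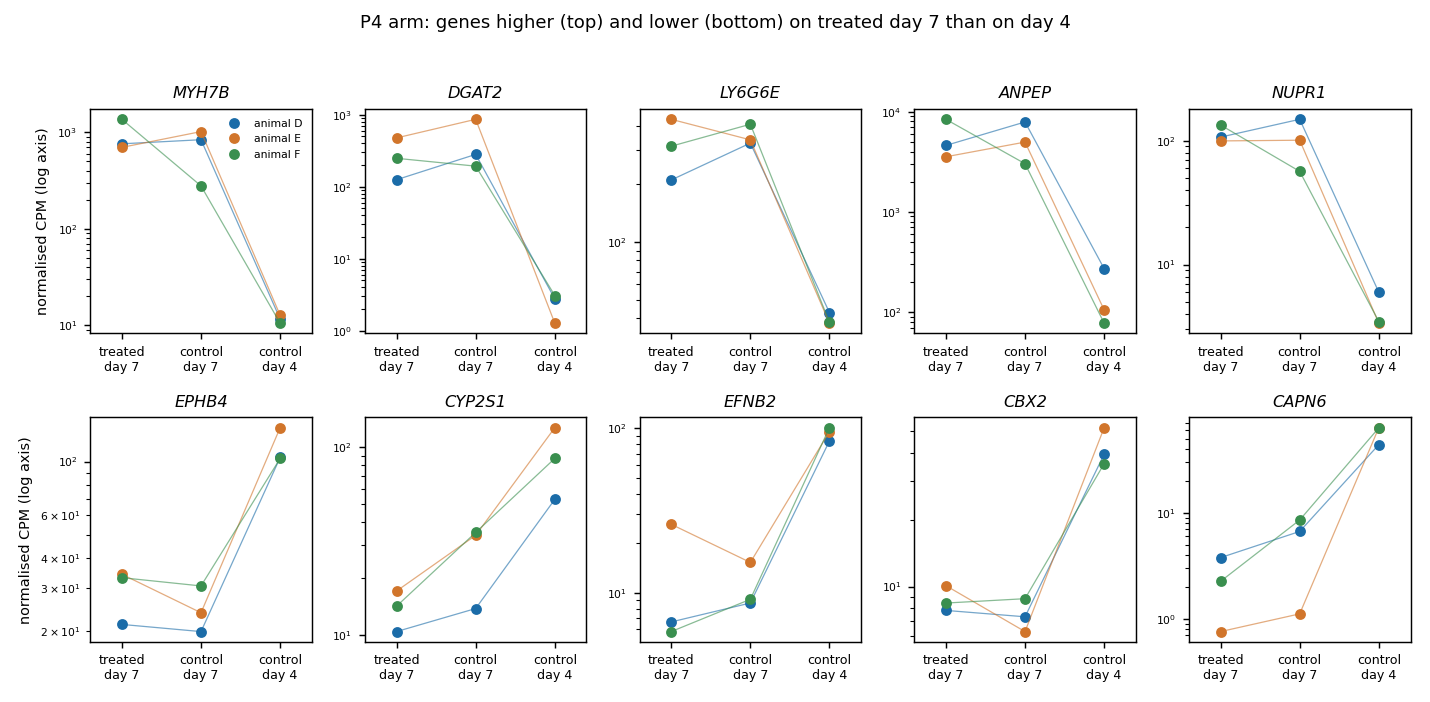
Level of 10 named genes in the 9 libraries of the P4 arm (CPM after scaling, log axis), with 1 point per library, coloured by cow and joined within a cow, in the order treated day 7, control day 7 and day 4. In each panel the 3 treated values lie on 1 side of the 3 day 4 values, as for MYH7B with 697 CPM or more on treated day 7 and 12.7 CPM or less on day 4.

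Among genes lower on treated day 7, a receptor and its ligand were in the set with the smallest p. EPHB4 (ENSBTAG00000003446), a receptor for B-type ephrins, had 21.3, 34.3 and 33.2 CPM on treated day 7, against 104, 138 and 103 CPM on day 4 (-1.99 ± 0.20, adjusted p = 0.00109). Its ligand EFNB2 had 6.65, 26.1 and 5.81 CPM on treated day 7, against 83.9, 95.7 and 101 CPM on day 4 (-3.19 ± 0.41, adjusted p = 0.00218). The groups did not overlap for either gene, and treated E was the highest treated library for both. CYP2S1, a cytochrome P450 that acts on retinoids and other lipids, had 10.4, 17.1 and 14.2 CPM on treated day 7 and 52.7, 127 and 87.1 CPM on day 4 (-2.61 ± 0.27, adjusted p = 0.00125). CAPN6, a calpain-like protein without protease activity, had 3.77, 0.755 and 2.25 CPM on treated day 7 and 44.0, 63.6 and 63.4 CPM on day 4 (-5.03 ± 0.71, adjusted p = 0.00297).

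Also lower were ZNF84 (-1.57 ± 0.16), NREP (-2.08 ± 0.22), the collagen prolyl hydroxylase P4HA2 (-2.14 ± 0.24), the p53-induced nuclease AEN (-1.84 ± 0.22), PRAG1 (-1.90 ± 0.22), the tetraspanin TSPAN11 (-3.73 ± 0.49), the WNT receptor FZD2 (-3.12 ± 0.42) and the adhesion protein CADM4 (-1.60 ± 0.22), with adjusted p from 0.00124 to 0.00267. These calls and those of EPHB4, EFNB2, CYP2S1 and CAPN6 held without any 1 of the compared libraries. In the fit without the cow as a block CAPN6 did not pass. RDH16, a retinol dehydrogenase, had 1.16, 32.7 and 4.54 CPM on treated day 7, against 175, 266 and 239 CPM on day 4 (-5.41 ± 1.26, adjusted p = 0.0196), but ended without day 4 D, day 4 F, treated D or treated F (up to 0.105). DCC, the netrin receptor, was at 0 in all 3 treated libraries and had 1.92, 5.57 and 9.63 CPM on day 4, at least 181-fold lower against a floor of 3 counts over the treated group, a bound that would be lower if both reads of each pair were counted (adjusted p = 0.0153, up to 0.0666 without day 4 F or treated F).

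Of 22 tested genes for steroid receptors, their coactivators and chaperones, 2 passed as higher and 6 as lower, with a median log2 fold change of -0.42 against -0.05 over all genes. PGR had 47.4, 31.4 and 37.1 CPM on treated day 7 and 108, 71.0 and 74.2 CPM on day 4 (-1.12 ± 0.25, adjusted p = 0.0166). ESR1, the main estrogen receptor, had 387, 281 and 284 CPM on treated day 7 and 714, 625 and 652 CPM on day 4 (-1.06 ± 0.30, adjusted p = 0.0420). Every treated value of both genes lay below every day 4 value. ESR2, the second estrogen receptor, had 39.9, 36.2 and 113 CPM on treated day 7 and 28.7, 18.0 and 20.1 CPM on day 4 (1.43 ± 0.42, adjusted p = 0.0472), with treated F far above the other libraries. PAQR5, a membrane progesterone receptor, was lower by the fit (-1.28 ± 0.38, adjusted p = 0.0488), although the ranges overlapped at 8.08 CPM in treated E and 7.82 CPM in day 4 D. The chaperones HSP90AB1 (-0.80 ± 0.19) and HSP90AA1 (-0.80 ± 0.20) and the coactivator NCOA3 (-0.61 ± 0.16) passed as lower and the coactivator NCOA2 as higher (1.04 ± 0.27), with adjusted p from 0.0231 to 0.0337. The calls were frail: PGR ended without day 4 D, day 4 E or treated F (up to 0.0799), ESR1 without any library but treated D (up to 0.18), ESR2 without any day 4 library or treated F (up to 0.222) and PAQR5 without any library but day 4 E or treated E (up to 0.205). The list had 6 lower calls without treated D, 4 without treated E, 1 without day 4 E or day 4 F and 0 without day 4 D or treated F, and its higher calls 3 without treated E, 2 without treated D, 1 without day 4 D and 0 otherwise.

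Of 25 genes known as PGR targets in the uterus of mice or women, 3 passed as higher and 0 as lower (median 0.16, and -0.15 with library totals). TSC22D3 (ENSBTAG00000045877), a steroid-induced leucine zipper protein, had 441, 219.5 and 392 CPM on treated day 7 and 122, 57.2 and 49.0 CPM on day 4 (2.28 ± 0.35, adjusted p = 0.00408). EDN1, the precursor of the vasoactive peptide endothelin-1, had 62.5, 19.0 and 41.8 CPM on treated day 7 and 7.72, 6.12 and 4.32 CPM on day 4 (2.72 ± 0.48, adjusted p = 0.00734). Both held without any 1 library, and neither overlapped between the groups. GATA2, a transcription factor that acts with PGR, had 972, 845 and 1601 CPM on treated day 7 and 412, 306 and 254 CPM on day 4 (1.88 ± 0.41, adjusted p = 0.0150), and ended without day 4 E, day 4 F or treated F (up to 0.083). FKBP5, an immunophilin induced by progesterone and glucocorticoids, had 286, 181 and 249 CPM on treated day 7 and 181, 104 and 66.7 CPM on day 4 and did not pass (1.06 ± 0.41, adjusted p = 0.112). IHH, the epithelial hedgehog ligand (0.08 ± 0.66), and HAND2, its relay in stroma (-1.57 ± 0.83), did not pass either (adjusted p = 0.950 for IHH and 0.233 for HAND2).

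Of 19 estrogen-responsive genes, 1 passed as higher and 1 as lower (5.26% each, against 7.77% and 5.99% of all genes, median -0.09). The lower gene was PGR itself. The lower calls numbered 4 without treated D, 2 without treated E, 0 without day 4 D or treated F and 7 with library totals, the higher calls 0 without day 4 E, day 4 F, treated E or treated F, and the median ran from -0.65 without treated D to 0.41 without treated F. PDZK1, a scaffold of membrane transporters, had 82.2, 71.0 and 125 CPM on treated day 7 and 32.6, 3.38 and 4.14 CPM on day 4 (3.58 ± 0.89, adjusted p = 0.0254), and ended without day 4 E, day 4 F, treated E or treated F (up to 0.126). OXTR, the oxytocin receptor of the luteolytic pathway, had 131, 653 and 90.9 CPM on treated day 7 and 1353, 722 and 1149.6 CPM on day 4, a value of -2.27 ± 0.71 that did not pass (adjusted p = 0.0562). Treated E stood near its own day 4 value, while treated D and F were far below theirs. Of the alternative fits, 5 called OXTR lower, while its adjusted p reached 0.23 in a fit that left out a library.

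The lists with the largest shares of lower calls were those of cell division. Of 28 tested genes of mitosis, 25 passed as lower and 1 as higher (median -3.65), and of 34 genes of DNA replication 21 passed as lower and 0 as higher (median -1.17, all 34 negative). MKI67 (ENSBTAG00000002444), the proliferation antigen, had 4.72, 36.5 and 6.48 CPM on treated day 7 and 167, 458 and 227 CPM on day 4 (-4.53 ± 0.99, adjusted p = 0.0153). BUB1B, of the spindle checkpoint, had 0.563, 6.33 and 0.957 CPM on treated day 7 and 36.1, 95.9 and 56.7 CPM on day 4 (-5.00 ± 1.17, adjusted p = 0.0203). RRM2, the regulated subunit of ribonucleotide reductase, had 1.55, 3.25 and 1.11 CPM on treated day 7 and 22.1, 52.1 and 37.0 CPM on day 4 (-4.16 ± 0.88, adjusted p = 0.0137). The groups were far apart for all 3 genes, and cow E was highest in both groups. The kinase TTK (-4.82 ± 1.08), the kinetochore protein CENPF (-4.79 ± 1.10), the kinesin KIF20A (-4.80 ± 1.16) and the spindle protein DLGAP5 (-4.96 ± 1.19) had adjusted p from 0.0168 to 0.0227.

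The licensing helicase subunit MCM3 had 16.8, 26.1 and 22.0 CPM on treated day 7 and 52.9, 125 and 83.8 CPM on day 4 (-1.96 ± 0.27, adjusted p = 0.00258), and passed without any 1 library. ORC1, of the origin recognition complex (-3.68 ± 0.69), CDC6, which loads the helicase (-3.55 ± 0.78), and GINS2, of the active helicase (-3.16 ± 0.64), had adjusted p from 0.00914 to 0.0154. CCNB1, the mitotic cyclin B1, was the mitosis gene that passed as higher, with 214, 243 and 359 CPM on treated day 7 and 132, 80.7 and 41.3 CPM on day 4 (1.92 ± 0.51, adjusted p = 0.0330). Its partner CDK1 was lower (-2.92 ± 0.88, adjusted p = 0.0498), as was CCNB2 (-3.60 ± 1.06, adjusted p = 0.0462). PLK1 (-0.73 ± 0.66) and PRC1 (-1.43 ± 0.61) did not pass (adjusted p = 0.498 for PLK1 and 0.146 for PRC1). The lower calls of mitosis numbered 20 without treated E, 8 without treated D or day 4 F, 6 without day 4 D, 3 without day 4 E and 0 without treated F, while the median stayed between -4.17 and -3.05. Those of DNA replication numbered 23 without treated D, 19 without day 4 D, 14 without treated E, 12 without day 4 F, 6 without day 4 E and 5 without treated F. MKI67 ended without treated F (0.0876).

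**Figure D2:**
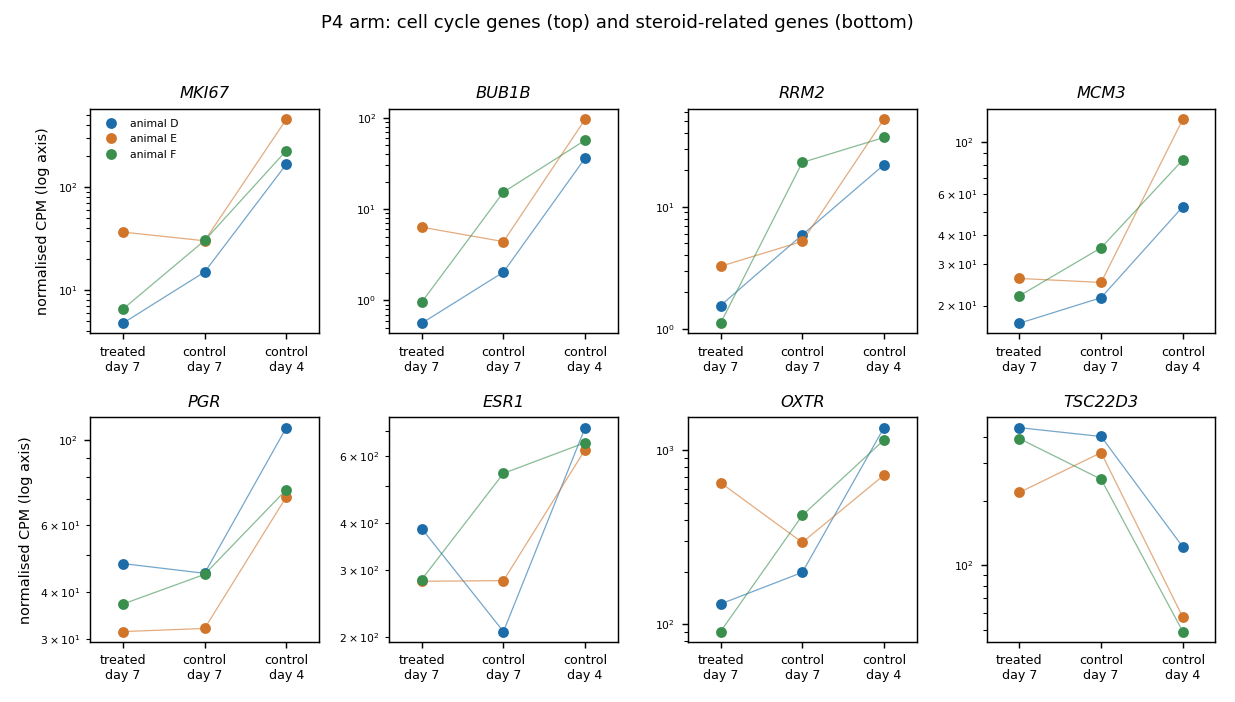
Level of 4 cell cycle genes (top) and 4 steroid-related genes (bottom) in the 9 libraries of the P4 arm (CPM after scaling, log axis), with points coloured by cow and joined within a cow. MKI67 reaches 36.5 CPM at most on treated day 7 and 167 CPM at least on day 4, whereas for OXTR treated E at 653 CPM lies close to day 4 E at 722 CPM.

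Ribosome biogenesis moved the same way with smaller changes: of 28 genes, 15 passed as lower and 0 as higher (median -0.57, with 27 negative). TSR1, a maturation factor of the small subunit, had 22.6, 23.2 and 26.8 CPM on treated day 7 and 47.1, 45.0 and 40.8 CPM on day 4 (-0.87 ± 0.12, adjusted p = 0.00284). The methyltransferase FBL (-0.94 ± 0.18), HEATR1, which promotes rRNA transcription (-0.97 ± 0.17), and the nucleolar methyltransferase RRP8 (-0.92 ± 0.17) had adjusted p from 0.00693 to 0.00972. These 4 genes passed without any 1 library, but none of them passed in the fit of the 6 compared libraries alone. RRP8 also ended with the 9 libraries of the P4 arm alone. The list had 7 lower calls without day 4 F, 8 without any of day 4 D, day 4 E, treated E and treated F, and 11 without treated D.

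Of 23 tested polycomb and MEX3 RNA-binding genes, which repress chromatin or bind mRNA in stem and progenitor cells, 6 passed as lower and 1 as higher (median -0.19). MEX3A, a marker of progenitor cells in the mouse intestine, had 1.80, 1.98 and 3.06 CPM on treated day 7 and 16.2, 23.6 and 17.1 CPM on day 4 (-3.07 ± 0.36, adjusted p = 0.00135). CBX2, of polycomb complex 1, had 7.81, 10.1 and 8.43 CPM on treated day 7 and 39.5, 52.0 and 35.8 CPM on day 4 (-2.27 ± 0.30, adjusted p = 0.00222). EZH2, the methyltransferase of polycomb complex 2 in dividing cells, was lower (-2.30 ± 0.46, adjusted p = 0.0112), and its counterpart of resting cells EZH1 was higher (0.48 ± 0.11, adjusted p = 0.0169). MEX3D was lower by -1.0 ± 0.17 (adjusted p = 0.00567). MEX3A, CBX2 and MEX3D passed without any 1 library, while EZH2 ended without day 4 F or treated F (up to 0.0746). The higher calls of this list numbered 5 without treated D, 1 without day 4 E and 0 without any other of the compared libraries.

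Growth factor pathways were mixed. Of 20 genes of the IGF and insulin system, 3 passed as higher and 5 as lower (median -0.35). PAPPA2, a protease that frees IGF from its binding proteins, had 1.37, 3.81 and 2.47 CPM on treated day 7 and 0.150, 0.0439 and 0 CPM on day 4, 8 counts over that group (5.34 ± 1.01, adjusted p = 0.00914). That count would stand for fewer RNA fragments if both reads of each pair were counted. INSR, the insulin receptor, had 112, 133 and 279 CPM on treated day 7 and 36.0, 36.3 and 31.9 CPM on day 4 (2.29 ± 0.40, adjusted p = 0.00702). Both were well separated between the groups. The binding protein IGFBP4 had 19.5, 20.6 and 10.7 CPM on treated day 7 and 112, 90.6 and 53.3 CPM on day 4 (-2.32 ± 0.39, adjusted p = 0.00569). IGFBP3 had 3.17, 33.9 and 11.8 CPM on treated day 7 and 77.5, 80.6 and 221 CPM on day 4 (-3.41 ± 0.78, adjusted p = 0.0181). IGFBP3 ended without day 4 D, day 4 F or treated F (up to 0.108), and the first 3 genes passed without any 1 library. In the fit without the cow as a block IGFBP4 and IGFBP3 did not pass. The lower calls of the list numbered 6 without treated E, 5 without treated D, 3 without day 4 E or treated F and 2 without day 4 D or day 4 F.

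Of 40 tested WNT, hedgehog and BMP genes, 9 passed as lower and 0 as higher (median -0.43). SMO, the signal transducer of hedgehog, had 12.7, 9.85 and 4.11 CPM on treated day 7 and 53.7, 78.1 and 69.6 CPM on day 4 (-2.90 ± 0.52, adjusted p = 0.00759). The ligand BMP7 had 4.19, 3.84 and 5.37 CPM on treated day 7 and 26.4, 78.0 and 20.9 CPM on day 4 (-3.06 ± 0.56, adjusted p = 0.00795). Both held without any 1 library and had no overlap. WNT6 (-3.20 ± 0.78, adjusted p = 0.0236) and the WNT modulator DKK3 (-2.94 ± 0.87, adjusted p = 0.0477) were lower too but passed only without day 4 E among the 6 fits that left out a library (up to 0.125 for WNT6 and 0.22 for DKK3). VANGL2, of planar cell polarity, was lower (-1.52 ± 0.25, adjusted p = 0.00569). The lower calls numbered 8 without day 4 E, 6 without day 4 F and 5 without any 1 of the other 4 libraries, and the higher calls 3 without treated D, 1 without day 4 D and 0 otherwise. Of 21 activin and TGF-beta genes, 3 passed as lower and 0 as higher (median -0.33): the receptor TGFBR2 (-0.90 ± 0.19), the inhibitory SMAD7 (-1.0 ± 0.25) and the transducer SMAD3 (-0.70 ± 0.19), with adjusted p from 0.0139 to 0.0339. TGFBR2 ended without treated E, day 4 F or treated F (up to 0.0815), and SMAD7 (up to 0.122) and SMAD3 (up to 0.17) without any 1 of the 6.

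Several lists of lipid handling had larger shares of higher calls than the 7.77% of all genes. These lists too were chosen with earlier results of these data known. Of 22 tested genes of triglyceride synthesis, storage and release, 4 passed as higher (18.2%) and 0 as lower (median 0.50). With library totals 4 were higher and 2 lower (median 0.20). DGAT2 (ENSBTAG00000055742), which completes triglycerides from diacylglycerol, had 125, 476 and 248 CPM on treated day 7 and 2.77, 1.27 and 3.08 CPM on day 4 (6.57 ± 0.72, adjusted p = 0.00129). PLIN2, a coat protein of lipid droplets, had 251, 229 and 423 CPM on treated day 7 and 65.1, 49.0 and 42.0 CPM on day 4 (2.53 ± 0.29, adjusted p = 0.00135). Neither gene overlapped between the groups, and cow E held both the highest treated and the lowest day 4 value of DGAT2. The monoacylglycerol lipase MGLL (3.04 ± 0.51, adjusted p = 0.00569) and the triglyceride lipase PNPLA2 (1.15 ± 0.26, adjusted p = 0.0183) were higher as well. PNPLA2 ended without day 4 E, day 4 F, treated E or treated F (up to 0.106), and the other 3 passed without any 1 library.

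Of 18 genes of fatty acid uptake and activation, 4 passed as higher (22.2%) and 1 as lower (median 0.80). With library totals 4 were higher and 2 lower (median 0.49). SLC27A6, a fatty acid transporter, had 45.9, 25.4 and 86.5 CPM on treated day 7 and 0.850, 0.351 and 0.561 CPM on day 4 (6.49 ± 0.79, adjusted p = 0.00159). ACSS2, which activates acetate, had 229, 197 and 463 CPM on treated day 7 and 51.0, 57.2 and 64.8 CPM on day 4 (2.30 ± 0.35, adjusted p = 0.00408). The acyl-CoA synthetases ACSL3 (2.24 ± 0.42, adjusted p = 0.00911) and ACSL4 (2.60 ± 0.61, adjusted p = 0.0206) were higher, and their relative ACSL5 had 74.2, 65.1 and 34.6 CPM on treated day 7 and 154, 182 and 172 CPM on day 4 (-1.51 ± 0.42, adjusted p = 0.0396). Enzymes of the same family thus differed in direction. ACSL3 ended without day 4 F (0.0564) and ACSL4 without day 4 E, day 4 F or treated F (up to 0.109), and the list had 1 lower call without treated D or treated E and 0 without any other library.

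Of 23 genes of fatty acid oxidation, 6 passed as higher and 0 as lower, with a median of 0.26 that was -0.04 with library totals. ECI2, an enoyl-CoA isomerase, had 99.4, 133 and 219.7 CPM on treated day 7 and 18.8, 15.7 and 13.2 CPM on day 4 (3.28 ± 0.55, adjusted p = 0.00578). HSD17B4, the peroxisomal multifunctional enzyme, had 352, 384 and 601 CPM on treated day 7 and 150.4, 85.8 and 68.1 CPM on day 4 (2.25 ± 0.37, adjusted p = 0.00562). Both passed without any 1 library. CPT1A, which admits fatty acids to mitochondria (1.69 ± 0.36, adjusted p = 0.0142), and the coactivator PPARGC1A (3.18 ± 0.69, adjusted p = 0.0146) ended without day 4 E or day 4 F, CPT1A also without treated F (up to 0.0821 for CPT1A and 0.0791 for PPARGC1A). The list had 9 higher calls without treated D, 5 without day 4 D, 6 without treated E, 3 without day 4 E or treated F and 2 without day 4 F.

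Genes of cholesterol synthesis and transport gave 8 higher and 0 lower calls among 26 (median 0.43), and 2 higher and 2 lower with library totals (median 0.12). MSMO1, a sterol demethylase, had 1014, 725 and 1338 CPM on treated day 7 and 457, 289 and 354 CPM on day 4 (1.51 ± 0.30, adjusted p = 0.0117). SREBF1, a transcription factor of lipid synthesis (2.32 ± 0.69, adjusted p = 0.0486), had 418, 322 and 1634 CPM on treated day 7 and 145, 191 and 106 CPM on day 4, with treated F far above the other treated libraries. INSIG1, the sterol sensor that holds back SREBP (1.54 ± 0.36, adjusted p = 0.0205), and NSDHL (1.37 ± 0.39, adjusted p = 0.0417) were higher. MSMO1 ended without day 4 F or treated F (up to 0.0642), SREBF1 (up to 0.235) and INSIG1 (up to 0.119) without any day 4 library or treated F, and NSDHL without any library but treated D (up to 0.222). The higher calls of the list numbered 9 without treated D, 4 without treated E, 2 without day 4 D, 1 without day 4 E and 0 without day 4 F or treated F. Of 16 genes of fatty acid synthesis, 1 passed as lower (median -0.22), a gene annotated ACACB, acetyl-CoA carboxylase 2 (ENSBTAG00000022058, -1.59 ± 0.42, adjusted p = 0.0313), which passed only without treated D among the fits that left out a library (up to 0.149).

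**Figure D3:**
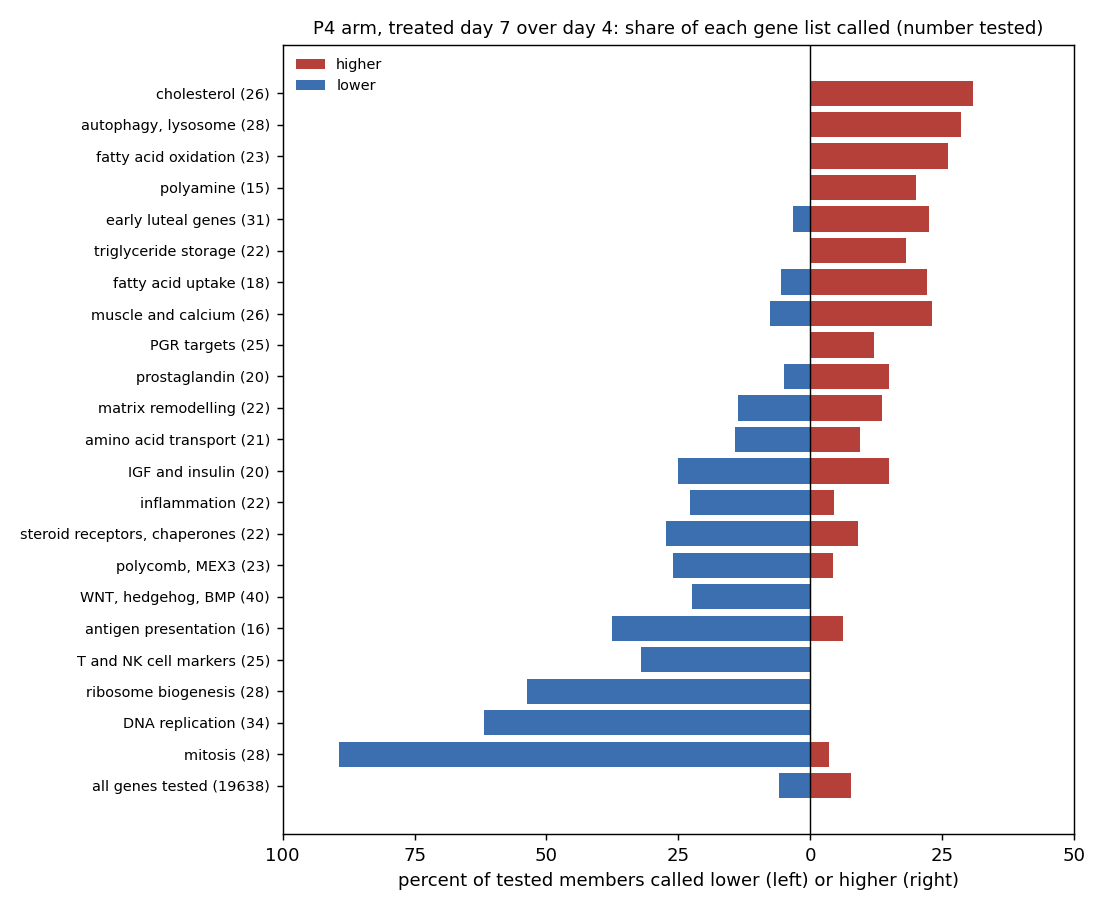
Share of the tested members of 22 gene lists called higher (right, red) or lower (left, blue) on treated day 7 than on day 4 in the P4 arm, with the number tested in brackets and all genes tested at the bottom (7.77% higher, 5.99% lower). Mitosis has 25 of 28 members called lower and cholesterol 8 of 26 called higher. The lists were chosen with earlier results of these data known, and the 22 shown were picked from 51 by no set rule. Lists left out had shares both below and above those of all genes. Higher calls were 0% for glucose transport and glycolysis and 14.3% for uterine transcription factors.

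Of 31 tested genes described as early luteal in ruminant endometrium, 7 passed as higher and 1, IGFBP3, as lower, with a median of 0.04 that was -0.24 with library totals and 0.25 to 0.79 without a library. ANPEP, an aminopeptidase of the apical membrane, had 4607, 3549.8 and 8399 CPM on treated day 7 and 271, 105 and 77.4 CPM on day 4 (5.4 ± 0.70, adjusted p = 0.00218). SLC1A1, a glutamate and aspartate transporter, had 1151, 1549 and 2389.6 CPM on treated day 7 and 217, 122 and 143 CPM on day 4 (3.45 ± 0.41, adjusted p = 0.00135). MEP1B, the beta subunit of the protease meprin, had 7.29, 8.72 and 11.6 CPM on treated day 7 and 0.450, 0.395 and 0.607 CPM on day 4 (4.24 ± 0.45, adjusted p = 0.00125). All 3 were separated between the groups and passed without any 1 library. The cathepsin CTSV (1.76 ± 0.43, adjusted p = 0.0243) and the chemokine CXCL14 (3.44 ± 0.97, adjusted p = 0.0401) were higher but each ended in 5 of 6 such fits, CTSV passing without treated D (up to 0.144) and CXCL14 without treated E (up to 0.154). The higher calls of the list numbered 7 without treated D, 6 without treated E, 5 without day 4 D and 4 without day 4 E, day 4 F or treated F, and the lower calls 3 without treated E, 1 without treated D or day 4 E and 0 otherwise.

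Other genes of this list spread widely between cows. LTF, the iron-binding defence protein lactoferrin, had 7884, 155 and 745 CPM on treated day 7 and 1049, 1357 and 1042 CPM on day 4 (-0.22 ± 1.66, adjusted p = 0.945). TINAGL1, a matrix protein, had 7.11, 483 and 19.0 CPM on treated day 7 and 16.8, 31.2 and 49.9 CPM on day 4 (0.72 ± 1.60, adjusted p = 0.804). MSTN, the growth inhibitor myostatin, had 0.774, 145 and 6.42 CPM on treated day 7 and 139, 249 and 190.0 CPM on day 4 (-3.78 ± 1.39, adjusted p = 0.0951). The 3 treated cows thus lay far apart in each, and the day 4 values closer together. SLC2A1, a glucose transporter (1.28 ± 0.50, adjusted p = 0.111), and the lens crystallin CRYGS (1.92 ± 1.21, adjusted p = 0.319) did not pass.

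Polyamines, small cations needed for embryo growth, had 3 higher and 0 lower calls among 15 genes (median 0.38). ODC1, the enzyme that makes putrescine, had 1654, 963 and 2394 CPM on treated day 7 and 359, 168 and 111 CPM on day 4 (3.13 ± 0.59, adjusted p = 0.00875). SAT1, which acetylates spermidine and spermine for export, had 1563, 1492 and 1346 CPM on treated day 7 and 157, 125 and 163 CPM on day 4 (3.29 ± 0.32, adjusted p = 0.00109). Enzymes at both ends of the pathway were thus higher in all 3 cows, as was SMS, spermine synthase (1.45 ± 0.31, adjusted p = 0.0145). SAT1 passed without any 1 library, ODC1 ended without day 4 F (0.0539) and SMS without day 4 D, day 4 F or treated F (up to 0.0843).

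Prostaglandins, the luteolytic and luteotrophic signals of the uterus, had 3 higher and 1 lower call among 20 genes (median -0.01). AKR1B1, known in cattle as a prostaglandin F synthase, had 1407, 1120.4 and 3085 CPM on treated day 7 and 313, 201 and 154 CPM on day 4 (3.13 ± 0.66, adjusted p = 0.0132). PTGIS, prostacyclin synthase, had 131, 171 and 209.8 CPM on treated day 7 and 86.9, 32.9 and 13.3 CPM on day 4 (2.34 ± 0.56, adjusted p = 0.0218). The prostaglandin E receptors differed in direction, PTGER4 higher (1.83 ± 0.48, adjusted p = 0.0294) and PTGER1 lower (-1.67 ± 0.45, adjusted p = 0.0334). PTGS2, the inducible cyclooxygenase, had 8.24, 908 and 28.3 CPM on treated day 7 and 28.5, 19.2 and 22.0 CPM on day 4 and did not pass (2.02 ± 1.69, adjusted p = 0.458). Treated E alone was high. AKR1B1 and PTGIS ended without day 4 E, day 4 F or treated F (up to 0.0761 for AKR1B1 and 0.106 for PTGIS), and both receptors without day 4 E, day 4 F or treated F and 1 further library (up to 0.18).

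Amino acid transporters split: of 21, 2 passed as higher and 3 as lower (median -0.04). Beside SLC1A1, SLC38A7 was higher, with 57.7, 121 and 123 CPM on treated day 7 and 32.1, 24.7 and 22.5 CPM on day 4 (1.92 ± 0.33, adjusted p = 0.00660). The neutral amino acid exchangers SLC1A5 (-2.06 ± 0.49, adjusted p = 0.0210) and SLC1A4 (-1.30 ± 0.29, adjusted p = 0.0163) and the cationic transporter SLC7A1 (-0.90 ± 0.18, adjusted p = 0.0102) were lower. SLC1A5 had 29.0, 14.1 and 10.9 CPM on treated day 7 and 51.1, 111 and 74.4 CPM on day 4, without overlap. SLC38A7 passed without any 1 library, while SLC1A5 (up to 0.103) and SLC1A4 (up to 0.089) each ended in 4 of the 6 fits without a library, those without day 4 E, treated E and treated F among them.

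Autophagy and lysosome genes had 8 higher and 0 lower calls among 28 (median 0.52, with 25 positive). MAP1LC3A, a ubiquitin-like protein of the autophagosome membrane, had 544, 237 and 463 CPM on treated day 7 and 18.8, 24.7 and 29.0 CPM on day 4 (4.04 ± 0.52, adjusted p = 0.00218). TP53INP2, which recruits autophagy proteins, had 73.2, 69.0 and 76.7 CPM on treated day 7 and 11.1, 5.92 and 7.76 CPM on day 4 (3.18 ± 0.37, adjusted p = 0.00135). WIPI1, which binds the forming membrane (2.88 ± 0.38, adjusted p = 0.00245), was separated between the groups in the same way, and all 3 passed without any 1 library. MAP1LC3B was higher (1.61 ± 0.35, adjusted p = 0.0144) and ended without day 4 D, day 4 F or treated F (up to 0.0861). The list kept 7 higher calls without treated D, 5 without treated E, 4 without day 4 D, day 4 E or treated F and 3 without day 4 F.

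Of 24 genes of the unfolded protein response, which adapts the endoplasmic reticulum to secretion, 2 passed as higher and 1 as lower (median 0.57, with 23 positive). These were 8.33% and 4.17%, close to the 7.77% and 5.99% of all genes. DNAJB9, a cochaperone, had 70.7, 60.4 and 137 CPM on treated day 7 and 31.9, 17.2 and 17.1 CPM on day 4 (2.05 ± 0.42, adjusted p = 0.0119). CRELD2 was higher (1.78 ± 0.45, adjusted p = 0.0266) and the pseudokinase TRIB3 lower (-2.28 ± 0.64, adjusted p = 0.0396). Of 27 genes of the secretory pathway, 3 passed as higher (11.1%) and 0 as lower (median 0.31). They were the GTPase ARF4 (0.86 ± 0.20) and the coat proteins SEC24D (1.14 ± 0.31) and SEC31A (1.5 ± 0.41), with adjusted p from 0.0189 to 0.0360. DNAJB9 ended without day 4 F or treated F (up to 0.07), and the other 5 genes in 3 to 6 such fits, always including those 2 libraries (up to 0.182). Without treated D the unfolded protein list had 9 higher calls, and 0 without day 4 F or treated F. The secretory list had 5 without treated D, 4 without treated E, 2 without day 4 D, 1 without day 4 E and 0 without day 4 F or treated F.

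Genes of the contractile and calcium-handling list, which contains MYH7B, had 6 higher and 2 lower calls among 26 (median -0.13). Like the other lists, it was chosen with earlier results of these data known. Its share of higher calls is therefore no independent result. AKAP6, an anchor of protein kinase A at the nuclear envelope, had 102, 192 and 253 CPM on treated day 7 and 8.87, 7.48 and 4.04 CPM on day 4 (4.83 ± 0.55, adjusted p = 0.00135). MCOLN3, a cation channel of endosomes, had 244, 152 and 259 CPM on treated day 7 and 8.70, 3.79 and 5.28 CPM on day 4 (5.31 ± 0.53, adjusted p = 0.00109). SRL, a calcium-binding protein of the sarcoplasmic reticulum in muscle, differed by 3.17 ± 0.35 (adjusted p = 0.00129). TRPV6, an epithelial calcium channel, was lower, with 3.27, 19.8 and 8.28 CPM on treated day 7 and 60.8, 60.9 and 75.7 CPM on day 4 (-3.03 ± 0.61, adjusted p = 0.0119), and UTRN, a relative of dystrophin, was lower (-0.93 ± 0.14, adjusted p = 0.00323). Smooth muscle markers had 0 calls among 12 by edgeR and summed to 361 to 470.5 CPM on treated day 7 and 405 to 478 CPM on day 4. The lower calls of the list numbered 3 without treated E, 1 without day 4 F or treated F and 2 otherwise. The 4 genes MYH7B, AKAP6, MCOLN3 and SRL passed without any 1 library.

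Matrix remodelling genes had 3 higher and 3 lower calls among 22 (median -0.73). TIMP3, a metalloproteinase inhibitor bound to matrix, had 1147, 575 and 1379 CPM on treated day 7 and 78.5, 134 and 92.7 CPM on day 4 (3.36 ± 0.64, adjusted p = 0.00932). TIMP2 passed as higher in the fit (1.77 ± 0.51, adjusted p = 0.0434), but cow D had 648 CPM on treated day 7 and 694 CPM on day 4. The collagenase MMP1 was at 0 in all 3 treated libraries and had 0.100, 2.37 and 1.54 CPM on day 4, at least 42.4-fold lower against the same floor and with the same limit (adjusted p = 0.0332), and MMP13 was lower too (-4.77 ± 1.26, adjusted p = 0.0319). The sheddase ADAM10 was higher (1.43 ± 0.34, adjusted p = 0.0210) and MMP11 lower (-1.03 ± 0.28, adjusted p = 0.0350). TIMP3 ended without day 4 F or treated F (up to 0.0598), MMP1 (up to 0.12) and MMP13 (up to 0.142) in 5 of 6 such fits, and TIMP2 without day 4 E, day 4 F, treated E or treated F (up to 0.19). The list had 0 calls without day 4 F, and its higher calls numbered 3 without treated D, 2 without day 4 D or treated E, 1 without day 4 E and 0 without treated F. Of 18 cathepsins and cystatins, CTSF (1.78 ± 0.37, adjusted p = 0.0134) and CTSV passed as higher and CTSW, of cytotoxic lymphocytes, as lower (-1.05 ± 0.22, adjusted p = 0.0136). CTSF ended without day 4 D, day 4 F or treated F (up to 0.076) and CTSW without day 4 F or treated F (up to 0.0843).

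Immune genes were lower where they differed, with a few exceptions. All 25 tested markers of T and NK cells had a negative log2 fold change, 8 of them called (median -0.84), and their summed level was 149 to 164 CPM on treated day 7 and 224 to 481 CPM on day 4, without overlap. GZMA, a granule protease of cytotoxic cells, had 4.26, 5.14 and 2.66 CPM on treated day 7 and 17.5, 8.20 and 19.2 CPM on day 4 (-1.84 ± 0.41, adjusted p = 0.0168). CD3D, of the T cell receptor complex, had 6.16, 6.10 and 7.94 CPM on treated day 7 and 8.77, 11.6 and 21.8 CPM on day 4 (-0.95 ± 0.24, adjusted p = 0.0282). NKG7 (-1.21 ± 0.35, adjusted p = 0.0448) and the chemokine CCL5 (-1.03 ± 0.30, adjusted p = 0.0441) were lower as well. The lower calls of this list numbered 7 without treated D, 4 without day 4 E, 2 without day 4 D or treated E and 0 without day 4 F or treated F. GZMA (up to 0.0969), CD3D (up to 0.145), NKG7 (up to 0.235) and CCL5 (up to 0.234) ended without day 4 D, day 4 F or treated F, and CD3D, NKG7 and CCL5 without further libraries too.

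Of 16 genes of antigen presentation, 6 passed as lower and 1 as higher (median -0.75). CD74, the invariant chain of class II molecules, had 342, 1008 and 299.6 CPM on treated day 7 and 1771, 2579.9 and 3189 CPM on day 4 (-2.33 ± 0.43, adjusted p = 0.00795). CIITA, the class II transactivator, had 9.64, 23.1 and 5.37 CPM on treated day 7 and 34.4, 46.6 and 52.4 CPM on day 4 (-2.03 ± 0.45, adjusted p = 0.0167). BOLA-DMB was lower too (-2.14 ± 0.53, adjusted p = 0.0244), a value that near-identical class II copies could affect. HLA-DOB, which restrains class II loading, went the other way, with 16.1, 14.3 and 21.1 CPM on treated day 7 and 1.45, 0.790 and 2.20 CPM on day 4 (3.57 ± 0.50, adjusted p = 0.00295). CD74 and HLA-DOB passed without any 1 library, and CIITA ended without day 4 F or treated F (up to 0.0944). In the fit of the 6 compared libraries alone CD74 did not pass. The lower calls numbered 6 without treated E, 4 without treated D, 3 without day 4 E, 2 without day 4 D and 1 without day 4 F or treated F.

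Inflammation genes had 5 lower and 1 higher call among 22 (median -1.31). CXCL10, a chemokine for T cells, had 4.29, 2.21 and 2.72 CPM on treated day 7 and 12.7, 15.2 and 50.2 CPM on day 4 (-2.76 ± 0.59, adjusted p = 0.0139). IL15, a growth factor of NK cells, had 2.53, 3.08 and 1.05 CPM on treated day 7 and 8.42, 9.94 and 13.2 CPM on day 4 (-2.27 ± 0.49, adjusted p = 0.0142). The neutrophil chemokine CXCL5 was lower (-3.11 ± 0.68, adjusted p = 0.0154). The higher gene was CXCL14. These 3 lower genes ended without day 4 F, CXCL10 and IL15 also without treated F and CXCL10 and CXCL5 also without treated E (up to 0.0758). The lower calls numbered 5 without treated D, 3 without day 4 D or day 4 E, 1 without treated E or treated F and 0 without day 4 F.

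Of 27 interferon-response genes, 1 passed as higher and 2 as lower (median -0.89). RIGI, the sensor of viral RNA, had 84.3, 90.8 and 66.9 CPM on treated day 7 and 29.3, 24.3 and 26.5 CPM on day 4 (1.57 ± 0.20, adjusted p = 0.00218), and passed without any 1 library. HERC6 (-1.26 ± 0.37, adjusted p = 0.0447) and IFIT5 (-0.49 ± 0.14, adjusted p = 0.0444) were lower and each ended in at least 5 of the 6 fits (up to 0.208 for HERC6 and 0.179 for IFIT5). Among 17 genes of mucosal defence the collectin CL46 passed, with 4.93, 4.45 and 2.50 CPM on treated day 7 and 0.05, 0.0219 and 0 CPM on day 4, 3 counts over that group (adjusted p = 6.49e-04). Bovine collectins include close copies, between which reads may have been split.

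Among markers of other cell types, stroma had 1 lower and 0 higher calls of 15 (median -1.30), summing to 472 to 2195 CPM on treated day 7 and 1872 to 2826 CPM on day 4. The called stromal gene was the matrix protein FBLN1, with 126, 106 and 64.9 CPM on treated day 7 and 374, 555 and 489 CPM on day 4 (-2.20 ± 0.49, adjusted p = 0.0167, ending without day 4 D, day 4 E or treated F, up to 0.0769). Macrophage markers summed to 61.2 to 163 CPM on treated day 7 and 213 to 337 CPM on day 4, without overlap, with 0 calls of 12 by edgeR (median -1.13). Endothelial markers, 0 calls of 14, summed to 40.8 to 127 CPM on treated day 7 and 71.0 to 109.9 CPM on day 4. Neutrophil (0 calls of 10), B cell (0 of 11) and ciliated cell markers (0 of 19) overlapped between the groups in their sums. At an unadjusted p under 0.05 stood 7 endothelial, 5 macrophage, 1 neutrophil, 1 smooth muscle, 0 B cell and 0 ciliated cell markers, and DESeq2 called 5, 3, 0, 1, 0 and 0 of them. Of 13 epithelial markers, CLDN7, a claudin (1.38 ± 0.34, adjusted p = 0.0248), and the splicing regulator ESRP2 (0.66 ± 0.15, adjusted p = 0.0195) were higher and KRT7 was lower (-1.97 ± 0.50, adjusted p = 0.0282), each ending in at least 4 fits that left out a library (up to 0.145 for CLDN7, 0.0948 for ESRP2 and 0.138 for KRT7). KRT8 (-0.69 ± 0.30, adjusted p = 0.152), FOXJ1 of ciliated cells (0.63 ± 0.76, adjusted p = 0.622), S100A8 of neutrophils (-0.36 ± 1.47, adjusted p = 0.896) and PTPRC of all leukocytes (-0.75 ± 0.32, adjusted p = 0.140) did not pass. The T and NK and macrophage sums, and with overlap the stromal sum, were lower on treated day 7, as were the called members of the T and NK list and most of those of the antigen presentation, inflammation and cell division lists, and their part in those results was not tested.

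**Figure D4:**
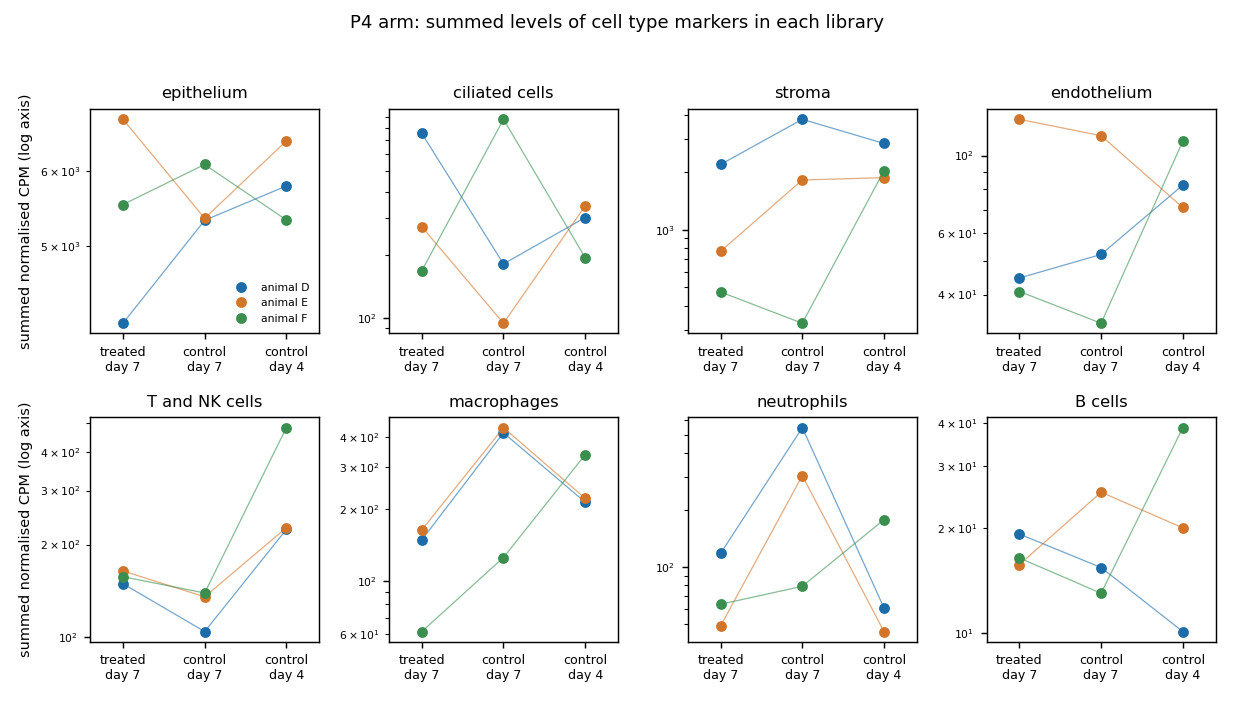
Summed level of the marker genes of 8 cell types in the 9 libraries of the P4 arm (CPM after scaling, log axis), with points coloured by cow and joined within a cow. T and NK cell markers sum to 164 CPM at most on treated day 7 and 224 CPM at least on day 4, while epithelial markers overlap.

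The remaining lists held few calls each, with shares on both sides of those of all genes. Higher calls exceeded the 7.77% of all genes for uterine transcription factors (14.3%), steroid metabolism (10.5%), red cell markers (12.5%) and squamous markers (16.7%). The shares of the 2 marker lists rest on 1 call each. The other lists named here had smaller shares, such as 4.55% for nuclear oxidative phosphorylation and 0% for glucose transport and glycolysis. Among 21 uterine transcription factors 3 passed as higher, GATA2, KLF15 (2.29 ± 0.64, adjusted p = 0.0375) and KLF4 (1.80 ± 0.52, adjusted p = 0.0426), and 0 as lower (median -0.05). The LIF and EGF list gave 1 higher call of 20, the interleukin-6 receptor IL6R (1.80 ± 0.41, adjusted p = 0.0179). Glucose transport and glycolysis gave 1 lower call of 26, SLC2A12 (-1.70 ± 0.45, adjusted p = 0.0311), the clock list 1 higher call of 18, NPAS2 (1.35 ± 0.39, adjusted p = 0.0439), and ion and water transport 1 higher call of 20, the anion exchanger SLC26A4 (2.11 ± 0.61, adjusted p = 0.0434). Steroid metabolism gave 2 higher calls of 19, HSD17B4 and HSD17B8 (0.84 ± 0.18, adjusted p = 0.0132). KLF15 (up to 0.139), KLF4 (up to 0.187), IL6R (up to 0.0993), SLC2A12 (up to 0.148), NPAS2 (up to 0.171), SLC26A4 (up to 0.168) and HSD17B8 (up to 0.0773) each ended without day 4 F and without at least 2 further libraries. Other fits gained calls: without treated D the glucose list had 3 higher calls and the clock list 2, and without treated E the clock list had 3. Nuclear genes of oxidative phosphorylation gave 2 higher calls of 44 (median 0.30), NDUFB6 (1.5 ± 0.33, adjusted p = 0.0158) and SDHC (0.60 ± 0.16, adjusted p = 0.0346), and mitochondrially encoded genes 1 of 13 (median 0.48), ND1 (1.11 ± 0.32, adjusted p = 0.0450). SDHC (up to 0.171) and ND1 (up to 0.187) ended without any 1 library and NDUFB6 without day 4 D, day 4 F or treated F (up to 0.103). Epithelial junctions gave 1 higher call of 22, CLDN7 (median 0.28, and -0.02 with library totals), 7 without treated D and 0 without treated F or any day 4 library. Complement had 0 calls of 20 by edgeR (median -0.74) and immediate early genes, which respond within minutes to handling, 0 of 24 (median 1.23), with 3 complement and 5 immediate early genes at an unadjusted p under 0.05 and 3 and 6 called by DESeq2. Markers of red cells gave 1 higher call of 8, CA1 (adjusted p = 0.0172), and of squamous epithelium 1 of 6, KRT14 (3.40 ± 0.72, adjusted p = 0.0137), with CA1 at 0.145 to 1.87 CPM on treated day 7 and at or near 0 on day 4. CA1 ended in 4 fits that left out a library (up to 0.0768) and KRT14 without day 4 E, day 4 F or treated F (up to 0.0732).

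The direct comparison of treated with control day 7 in the same cows asks what the treatment cycle differed in at the same day. It had 0 genes called of 19638 (0%) by edgeR, with a smallest adjusted p of 0.991 and 881 genes at an unadjusted p under 0.05, where 982 would be 5% of the genes. Limma voom called 0 and DESeq2 23, with 2 called by edgeR without treated D and 1 without control day 7 F. Control day 7 over day 4, within the untreated cycle, shares the day 4 libraries and had 2975 genes called (15.1%). Genes called higher on treated day 7 had a median log2 fold change over day 4 of 1.41 there and 1.31 on control day 7. For genes called lower the medians were -1.45 and -1.28. The treated values chose these genes, and both changes use the same day 4 libraries. DGAT2 differed from day 4 by 6.57 ± 0.72 on treated day 7 and by 7.18 on control day 7, PGR by -1.12 ± 0.25 and by -1.05, and MKI67 by -4.53 ± 0.99 and by -3.37. The median of the mitosis list was -3.65 on treated day 7 and -2.41 on control day 7, with 25 and 9 lower calls, and edgeR called none of the members in the direct comparison. T and NK markers had 8 lower calls on treated day 7 and 17 on control day 7.

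The genes with the smallest p in the direct comparison did not pass and are given as values. FCGR2B, an inhibitory antibody receptor, had 6.23, 1.31 and 0.803 CPM on treated day 7 and 36.1, 27.9 and 30.0 CPM on control day 7 (-3.76 ± 0.67, unadjusted p = 0.000166 by edgeR, n = 3 cows), with 4.42, 7.57 and 10.1 CPM on day 4. LGALS3, galectin-3, had 101, 68.3 and 55.7 CPM on treated day 7 and 181, 187 and 176 CPM on control day 7 (-1.31 ± 0.30), with 61.1, 57.7 and 55.8 CPM on day 4. RNASET2, a lysosomal ribonuclease, had 31.8, 28.7 and 21.3 CPM on treated day 7 and 48.5, 62.2 and 54.5 CPM on control day 7 (-1.01 ± 0.23). In these 3 genes the treated day 7 values lay below every control day 7 value, and the LGALS3 values of treated day 7 lay near those of day 4. Macrophage markers summed to 148, 163 and 61.2 CPM on treated day 7 and to 416, 437 and 125 CPM on control day 7. The part of this difference in the values of the 3 genes was not tested. NEK8, a ciliary kinase, had 47.2, 53.9 and 49.8 CPM on treated day 7 and 33.2, 35.6 and 27.2 CPM on control day 7 (0.65 ± 0.14). SASH1 (0.72 ± 0.15) and the nuclear receptor NR1I3 (2.73 ± 0.50) completed the set, all with an adjusted p of 0.991.

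The same change in the 17-OHPC/P4 arm, from other cows, had 1029 genes called (5.24%), 832 higher and 197 lower. Of the 2702 genes called in the P4 arm, 2610 (96.6%) had the same sign there, against 74.2% of all genes tested, and 749 were called there too, 0 of them in the opposite direction. Across all genes tested, which are not independent replicates, the fold changes of the arms had a Pearson correlation of 0.594 and a Spearman correlation of 0.571. Genes called higher in the P4 arm had a median of 1.41 there and 1.06 in the 17-OHPC/P4 arm, and genes called lower had -1.45 and -0.71, although the P4 values were the ones that chose these genes. The arm difference itself had 0 genes called (0%) by edgeR, with a smallest adjusted p of 0.643, 1147 genes at an unadjusted p under 0.05, 0 calls by voom, 63 by DESeq2 and 3 by edgeR without day 4 A of the 17-OHPC/P4 arm.

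Of 155 named genes called in the P4 arm and not at 0 in a whole group, 72 passed in the 17-OHPC/P4 arm too. MYH7B differed by 6.38 ± 0.53 and by 6.05 there, DGAT2 by 6.57 ± 0.72 and 6.74, and SLC1A1 by 3.45 ± 0.41 and 3.08. Of the mitosis genes, CCNB1 passed there as higher (2.05, adjusted p = 0.0445), as in the P4 arm, and 0 passed as lower. MKI67 differed by -4.53 ± 0.99 in the P4 arm and by -1.51 in the 17-OHPC/P4 arm (adjusted p = 0.360), and the mitosis list had 25 lower calls in the P4 arm and 0 in the 17-OHPC/P4 arm (medians -3.65 and -1.48). DNA replication had 21 and 0 lower calls (medians -1.17 and -0.63). The edgeR test of the arm difference itself called none of these genes. The genes with the smallest p for the arm difference, which did not pass, included NAPRT, with 161, 168 and 245 CPM on treated day 7 and 37.9, 45.7 and 48.8 CPM on day 4 in the P4 arm, and 133, 149.8 and 94.7 CPM and 66.1, 144 and 81.2 CPM in animals A, B and C (difference 1.69 ± 0.27, adjusted p = 0.643). UTRN was lower in each P4 cow and higher in each 17-OHPC/P4 cow, with a difference of -1.20 ± 0.19 (adjusted p = 0.643). Its treated day 7 values were 97.4, 132 and 119 CPM in the P4 arm and 90.1, 87.5 and 80.8 CPM in animals A, B and C. On day 4 they were 192, 231 and 240.2 CPM in the P4 arm and 79.5, 72.0 and 64.0 CPM in animals A, B and C. The amino acid transporter SLC43A1 (1.51 ± 0.28), RASGRF2 (2.72 ± 0.50), THSD4 (-1.80 ± 0.33) and VANGL2 (-1.66 ± 0.36) had an adjusted p of 0.821.

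**Figure D5:**
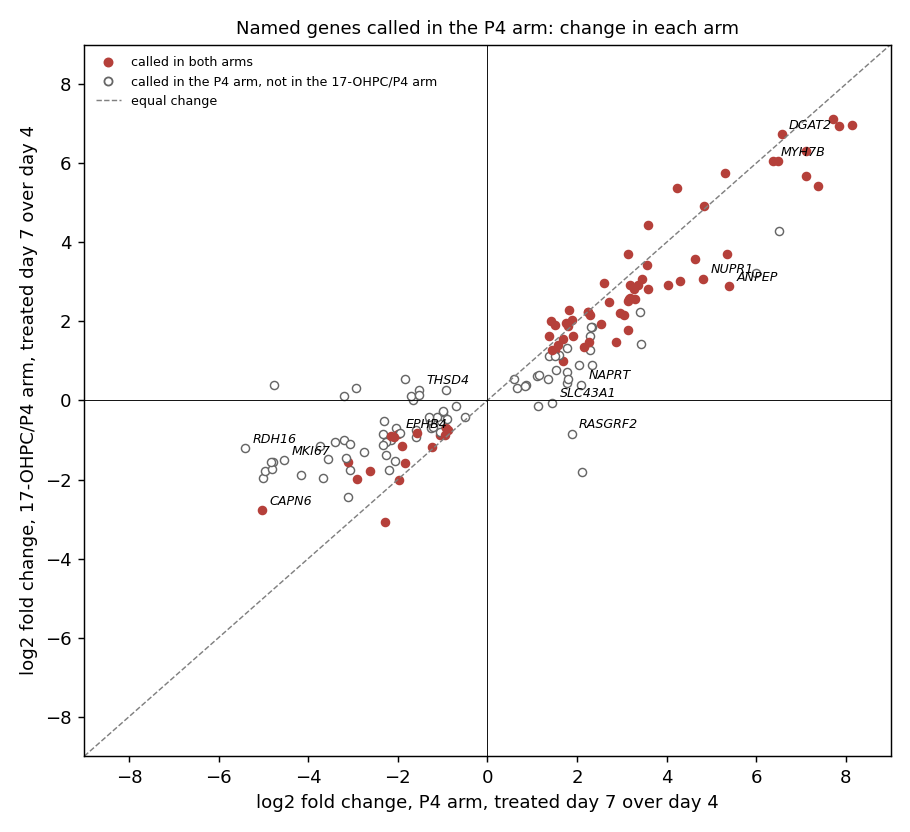
Log2 fold change of treated day 7 over day 4 in the P4 arm (x axis) and in the 17-OHPC/P4 arm (y axis) for 155 named genes called in the P4 arm, filled where also called in the 17-OHPC/P4 arm, with the dashed line marking equal change and DCC and MMP1 left out because their treated libraries are at 0. Of these genes 142 have the same sign in both arms and 72 are called in both.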

How the data were processed

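Cytobrush RNA of 6 cows was sequenced as poly(A) libraries, 3 per cow. The deposited table holds the authors' raw counts, whole numbers of reads per Ensembl gene, not normalized. Per the submitters' processing notes, the tools were STAR, featureCounts, cutadapt, FastQC and DESeq2. The strand setting, the treatment of read pairs, the annotation and the build are not given in the sources used, so overlapping, antisense and near-identical genes may share reads. Of 38001 genes, 17715 carried no symbol.

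Libraries were grouped by the labels and paired by the letter that the labels give each cow. The fit used all 18 libraries, which held 29347255 to 40733544 counts, with a coefficient per cow and the control day 7 and treated day 7 changes in each arm, so that both arms share the estimate of the spread. Filtering (filterByExpr), TMM scaling and the quasi-likelihood test were those of edgeR 4.0.16 (R 4.3.3), with Benjamini-Hochberg adjustment over the 19638 genes kept, of which 4735 had no symbol. Calls have an adjusted p under 0.05. Standard errors are the fold change divided by the square root of F. CPM values are scaled by TMM. Deviations of treated day 7 and day 4 libraries of the same cow from their group means correlated at 0.13, 0.06 and 0.04 in D, E and F. In A, B and C, which share the estimate of the spread, they correlated at 0.54, 0.37 and 0.59. Alternatives used limma 3.58.1 (voom) and DESeq2 1.42.0, and the steps were tested on simulated data.

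The members and the 51 gene lists (1033 of 1072 symbols had a gene) were chosen with earlier results of these data known. Named genes have a symbol of their own. They were the 15 with the smallest p and the 8 with the largest change in each direction, among called genes with a mean of at least 5 CPM in a group and the same direction in all 3 cows, up to 4 called members of each list by size of change, the 3 with the smallest p in each direction of the other comparisons, and 18 genes named regardless. HSP90AB1, HSP90AA1, NCOA2, NCOA3, CCNB1, CDK1, CCNB2, PLK1, PRC1, EZH1, ACSL5, SLC7A1, TRPV6, ADAM10 and MMP11 were named after their values were seen. Some genes that the rule names are not reported here. The samples of a group came from separate cows.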

Additional observations from a re-analysis of the deposited data

How the results depend on the processing

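The 2702 calls of treated day 7 over day 4 in the P4 arm, 1525 higher and 1177 lower, became 1468 (848 higher, 620 lower) with no replicate block, that is without the pairing by cow. They became 4697 (2572 and 2125) with DESeq2, 1066 (611 and 455) with the 9 libraries of the P4 arm alone and 1099 (592 and 507) with the 6 compared libraries alone. With library totals in place of scaling factors, an alternative chosen after seeing the data, 958 genes were higher and 2933 lower. RLE size factors gave 2712 calls, no filter on low counts 2120 and limma voom 3185. Leaving out a library gave 702 to 2764 calls, 455 to 1635 higher and 233 to 1129 lower. The cause of these shifts was not tested, beyond the fewer libraries of some fits. Of 157 named genes called, 157 kept their sign under every alternative that tested them, 69 were called without each of the 6 libraries and 59 under all alternatives. Calls kept numbered 109 with no replicate block, 153 with RLE, 140 without a filter, 157 with DESeq2, 152 with voom, 102 with 9 libraries, 95 with 6 and 145 with library totals.

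Treated over control day 7 had 0 calls under edgeR and voom, 23 with DESeq2 and 0 to 2 without a library. The arm difference had 0, 63 with DESeq2 and 0 to 3 without a library. Neither count of 0 shows that the groups acted alike. The number of cows, 3 an arm, and a biological coefficient of variation of 39.4% limited the precision of each fold change. A search of promoters for motifs was not run.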

Other observations

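Gene families taken by symbol prefix after the data had been seen, some of whose members are in the lists above, are described by counts alone. In the P4 arm, treated day 7 over day 4, some families had larger shares of calls than all genes and others did not. Of 294 solute carrier genes tested, 46 passed as higher and 18 as lower by edgeR (15.6% and 6.12%, against 7.77% and 5.99% of all genes), with a median log2 fold change of 0.20. Subunits of the vacuolar proton pump, which acidifies lysosomes and secretory vesicles, had 7 higher and 0 lower calls of 21 (median 0.31), ATP6V0C and ATP6V1H among them. EPH receptors and ephrins had 6 lower calls of 21, EFNB1, EFNB2, EPHB1, EPHB2, EPHB4 and EPHB6, all of the B class, and 1 higher call, EFNA1 of the A class (median -0.30).

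Kinesin motors had 13 lower (33.3%) and 2 higher calls (5.13%) of 39 (median -0.53). Centromere proteins had 11 lower (52.4%) and 1 higher (4.76%) of 21 (median -1.19). Several of these genes are also in the mitosis list. ADAMTS proteases had 4 lower (22.2%) and 0 higher calls of 18 (median -1.43). Tetraspanins had 6 lower (31.6%) and 1 higher (5.26%) of 19 (median -0.41). Cytosolic ribosomal proteins had 3 lower (4.69%) and 1 higher call (1.56%) of 64, smaller shares than those of all genes. Their median of -0.41 was below the -0.05 of all genes, as was the -0.57 of the biogenesis factors. ZNF zinc finger genes had 14 calls in each direction of 265 (5.28% each, median -0.05), also smaller shares than those of all genes. These counts were not recomputed without single libraries or with other scaling.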
